A study of Homo sapiens with 24 samples.

Results

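The E2F transcription factors and the retinoblastoma (pocket) proteins were followed at the RNA level in 2 human cancer cell lines after knock-down of MCM7, a subunit of the replicative helicase. The members were chosen by name: E2F1 to E2F8, RB1 and RBL1, which are 10 of the 21386 genes in the count files. All 10 passed the filter on low counts in every comparison. Bulk RNA was sequenced from A375 melanoma cells and A549 lung adenocarcinoma cells in 8 groups of 3 biological replicates, which gave 24 libraries. In each line the groups were shMCM7 cells and parental cells, each with 1 μg/ml Dox for 72 hours (Dox) or without it (noDox). The shMCM7 cells had been transduced with a lentiviral vector from which Dox induces the hairpin, and they were a puromycin-selected population rather than a clone. All groups, controls included, were arrested at the G1/S boundary by thymidine block, and the parental cells are not labelled as carrying any hairpin. In bulk RNA, fewer cells with a transcript and less transcript per cell cannot be told apart.

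Most E2F factors bind DNA as dimers with a DP protein, and E2F7 and E2F8 bind it without one. Some of the factors are repressors, while the activators turn on the genes that a cell needs to enter S phase. RB1 and the related RBL1 (p107) and RBL2 (p130) bind E2F factors and hold these genes off until cyclin-dependent kinases phosphorylate the pocket proteins. The MCM genes are themselves well-known E2F targets, and E2F1, E2F2, E2F7, E2F8 and RBL1 are among the genes that oscillate with the cycle in dividing cells.

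The hairpin targets the following stretch of MCM7, shown because it defines the knock-down that all comparisons below rest on.
shMCM7 target: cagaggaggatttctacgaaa
On GRCh38 it lies in the coding sequence at chr7:100097728-100097836 on the minus strand, split over exons 8 and 9 of the MCM7 transcript ENST00000303887.9 (GENCODE 29). No annotated transcript of the 10 members matched the 21 bases of the target closely. The fewest mismatches were 6 in RBL1, and the others needed 7 to 9. Matches to only a part of the target were not searched, so a direct effect of the hairpin on a member was not tested.

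Of the 10 members, 7 had a promoter window at or near their start in the RefSeq table (GRCh38.p14, 250 bases before to 50 after a gene's start). The windows were searched on both strands for the E2F consensus as TTTCCCGC, TTTCGCGC, TTTGCCGC or TTTGGCGC. They were found in the windows of E2F1, E2F2, E2F3 and RBL1, with no overlap between matches, and not in those of E2F4, E2F6 and E2F7. The stretches show the matches in these 4 members next to their own start, with the matched letters in capitals, read 5′ to 3′ along the gene's strand.
E2F1 (chr20:33686386-33686433, minus strand): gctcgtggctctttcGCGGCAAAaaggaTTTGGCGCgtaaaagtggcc
E2F2 (chr1:23531253-23531290, minus strand): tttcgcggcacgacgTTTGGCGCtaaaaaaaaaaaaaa
E2F3 (chr6:20401811-20401848, plus strand): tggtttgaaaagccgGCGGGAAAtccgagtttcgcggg
RBL1 (chr20:37095998-37096038, minus strand): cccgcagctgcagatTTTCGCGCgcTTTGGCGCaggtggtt
The matches began 53 to 16 bases before the start, and in E2F1 the first match and in E2F3 the only match lie on the opposite strand. By comparison, 1090 of 27305 genes (3.99%) and 1164 of 35116 windows (3.31%) in the table held any of the 4 words. Among the other genes of the pathway, 15 of the 28 G1/S target genes with a window held a match (53.6%), and MCM7 held one too. A match is a description of the letters and was not tested as a binding site.

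The count files held 146656792 to 283721575 counts per library in A375, and the A549 libraries were shallower at 17911338 to 23452823. Levels are given as CPM, counts scaled to the library total after TMM scaling over all 24 libraries. In A375, MCM7 stood at 76.1, 74.4 and 75.9 CPM in the shMCM7 Dox libraries, against 333 to 360 CPM in the 6 parental libraries. Without Dox, the shMCM7 libraries of replicates 2 and 3 had 342 and 349 CPM, whereas replicate 1 had 128 CPM, so that this library went partly against its label. In A549 the MCM7 levels went against the labels. The libraries labelled shMCM7 Dox 3, shMCM7 noDox 2 and parental noDox 2 had 98.2, 102 and 92.4 CPM, while the other 9 had 305 to 346 CPM. For this reason A375 carries the comparisons below, and A549 is given library by library. Of 7 melanoma marker genes, 4 were above 1 CPM in every A375 library, with MLANA and TYR at or below 3 counts, and all 7 lung epithelial markers were above 1 CPM in every A549 library. The lists did not part the lines fully, since 3 epithelial markers (KRT7, KRT8 and KRT18) also passed 1 CPM in every A375 library and the melanoma marker MITF did so in every A549 library. In parental cells MITF was lower in A375 (29.9 ± 2.52 CPM) than in A549 (44.5 ± 5.71 CPM), whereas the 3 keratins were higher in A549.

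To ask how much of each factor the arrested cells held, levels were divided by the merged length of all annotated exons of a gene. The transcripts that the cells expressed can be shorter than this and were not measured, so the order of the genes below rests on this length. In parental A375 cells, E2F4, a factor best known as a partner of RBL1 and RBL2 in repression, had the highest level, with 61.9 ± 4.86 CPM per kilobase (SD, n = 6). E2F1, an activator, followed with 22.6 ± 1.79 CPM per kilobase. E2F7, an atypical repressor that binds DNA without a DP partner, had 16.3 ± 0.612 and RB1 had 15.6 ± 0.946 CPM per kilobase, and the ranges of these neighbours overlapped. E2F3, RBL1, E2F6 and E2F8 followed at 9.29, 6.67, 5.14 and 3.1 CPM per kilobase, without overlap between neighbours. The activator E2F2 and the repressor E2F5 were lowest, at 1.81 ± 0.132 and 1.62 ± 0.1 CPM per kilobase, with overlapping ranges. In parental A549 cells the order began with E2F1 at 30.2 ± 2.19 and E2F4 at 25.1 ± 3.32 CPM per kilobase, which overlapped, and the order ended with E2F5 at 4.06 ± 0.292 and E2F2 at 3.65 ± 0.212 CPM per kilobase, which overlapped as well. RB1 came next in A549 with 12.2 ± 1.09 CPM per kilobase. RBL1, E2F3, E2F7, E2F6 and E2F8 lay between 8.39 and 6.79 CPM per kilobase there, each overlapping its neighbour.

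**Figure D1:**
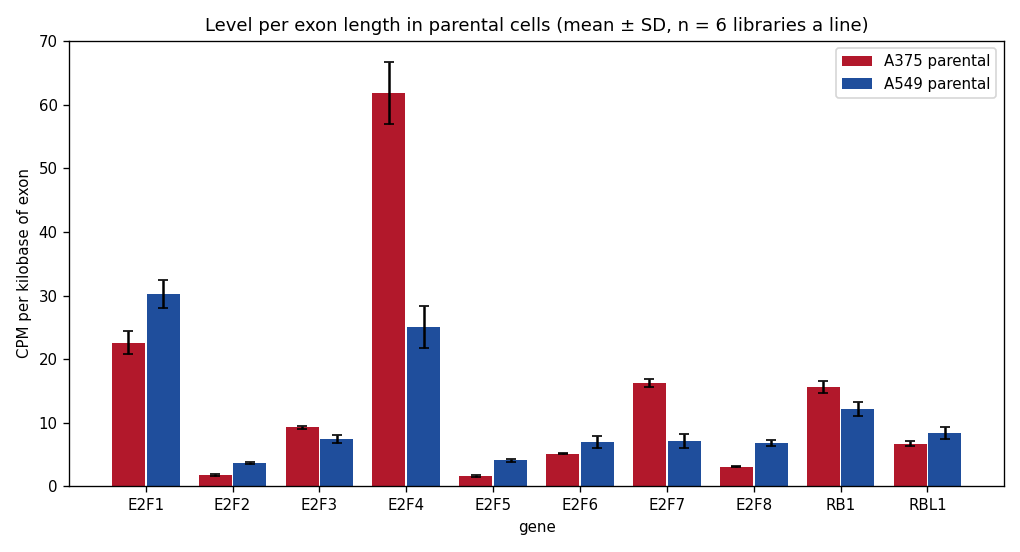
Level of each gene in CPM per kilobase of exon (y axis) in parental cells of A375 and A549, as mean with SD over 6 libraries a line (Dox and noDox together). E2F4 stands at 61.9 in A375 and 25.1 in A549. On this scale, which uses the merged length of all annotated exons, E2F2 and E2F5 are the lowest in both lines.

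Between the parental cells of the lines, 5 of the 10 members passed the call rule used throughout, a fold change of at least 1.5 with p below 0.01 and an FDR below 0.05 in edgeR's quasi-likelihood test. Across all genes 59.3% passed. E2F4 had 222 ± 17.4 CPM in A375 and 89.8 ± 11.9 CPM in A549 (SD, n = 6), a log2 fold change of 1.29 (SE 0.066, edgeR FDR 2.41e-10). E2F7 was higher in A375 as well, with 103 ± 3.85 against 45 ± 6.65 CPM and a log2 fold change of 1.18 (SE 0.078, edgeR FDR 3.93e-09). The other 3 were lower in A375. E2F5 had 9.6 ± 0.593 against 24.1 ± 1.73 CPM (log2 fold change −1.34), E2F8 had 12.8 ± 0.537 against 28.1 ± 1.95 CPM (−1.15) and E2F2 had 9.89 ± 0.72 against 19.9 ± 1.16 CPM (−1.03). All 5 were also called without the library labelled A549 parental noDox 2, whose MCM7 was low. E2F1, E2F6 and RBL1 were lower in A375 by less than 1.5-fold (log2 fold changes −0.43, −0.45 and −0.35), and E2F3 and RB1 were higher by less than 1.5-fold (0.30 and 0.34). In all 10 members the 6 A375 libraries did not overlap the 6 A549 libraries, which was so for 71.8% of all genes. The lines were sequenced to different depths, so that line and depth cannot be told apart here.

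The question of the main comparison is what MCM7 depletion does to gene expression in cells held at the G1/S boundary. No library is labelled as carrying a scrambled hairpin, so MCM7 loss and other effects of inducing this hairpin cannot be told apart. In A375 shMCM7 cells, 12% of the genes tested were called between Dox and noDox, and 0 of the 10 members were called. At an unadjusted p below 0.05 there were 4 members (E2F4, E2F5, E2F8 and RBL1), beside 8288 of all 16087 genes tested. DESeq2 called 0 members under the same rule. For all 10 members the 95% confidence interval of the log2 fold change stayed within 1.5-fold in either direction, between −0.56 and 0.52. The same was true of 66.1% of all genes tested. The median size of the log2 fold change was 0.08 over the members and 0.21 over all genes.

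Of the 10 members, 2 passed the FDR limit alone, in opposite directions, where 42.9% of all genes passed it. E2F5, a repressor E2F that works with RBL2, had 13, 13.2 and 13 CPM in the shMCM7 Dox libraries and 9.16, 10.6 and 10.7 CPM in the noDox libraries. In the parental cells it had 9.72, 9.29 and 9.64 CPM with Dox and 8.66, 10.4 and 9.89 CPM without. All 3 shMCM7 Dox libraries were thus above all 9 other A375 libraries. How many of all genes separate in this way was not counted. Between the shMCM7 Dox and noDox libraries alone, 55.1% of all genes did not overlap. The log2 fold change of E2F5 in shMCM7 cells was 0.35 (SE 0.078, 95% interval 0.17 to 0.52, edgeR FDR 0.00643), a 1.27-fold difference. The low-MCM7 noDox library of replicate 1 had the lowest E2F5 of its group, and without it the gene still passed the FDR limit, as it did when any other library was left out (FDR 0.0116 to 0.0214).

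E2F8, the other atypical repressor, was the lower one. It had 10.8, 9.96 and 8.66 CPM in the shMCM7 Dox libraries, 13.1, 11.2 and 12.5 CPM in the shMCM7 noDox libraries, 13.3, 12.1 and 13.4 CPM in the parental Dox libraries and 13.1, 12.3 and 12.8 CPM in the parental noDox libraries. All 3 shMCM7 Dox libraries were below all 9 others, a pattern whose share over all genes was likewise not counted. The log2 fold change was −0.34 (SE 0.097, 95% interval −0.56 to −0.12, edgeR FDR 0.0187), a 1.27-fold lower level. E2F8 passed this limit only with certain libraries in the fit, as its FDR was 0.0661 without shMCM7 Dox 3, 0.0531 without shMCM7 noDox 1 and 0.0565 without shMCM7 noDox 3.

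**Figure D2:**
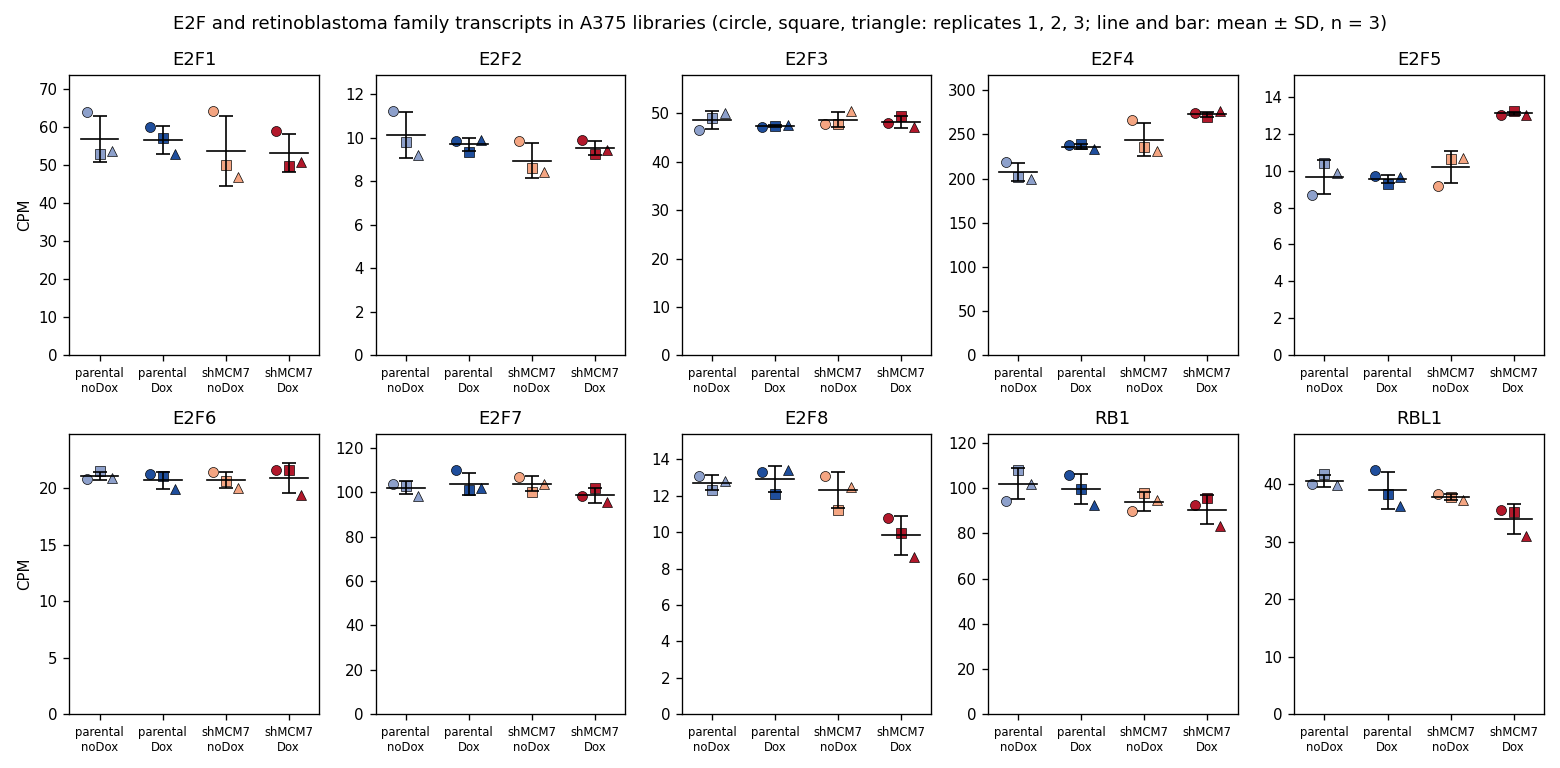
CPM (y axis, from 0) of each gene in the 12 A375 libraries by group, with a symbol for each replicate and the mean with SD (n = 3). E2F5 in shMCM7 cells with Dox (13 to 13.2 CPM) lies above all other libraries, and E2F8 (8.66 to 10.8 CPM) lies below them. The share of all genes that set these libraries apart was not counted. E2F4 is higher with Dox in both kinds of cells.

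The activators E2F1, E2F2 and E2F3 gave no such separation. E2F1 had 58.9, 49.8 and 50.8 CPM in shMCM7 cells with Dox and 64, 49.9 and 46.9 CPM without, a log2 fold change of −0.03 (95% interval −0.28 to 0.22). Its level was highest in the replicate 1 libraries of all 4 A375 groups. E2F2 was at 9.26 to 9.89 CPM with Dox and 8.4 to 9.84 CPM without, with a log2 fold change of 0.07 (95% interval −0.11 to 0.26). E2F3 was at 47.1 to 49.4 CPM with Dox and 47.7 to 50.4 CPM without, with a log2 fold change of −0.03 (95% interval −0.15 to 0.09). For E2F3 this interval leaves room for a difference of no more than 0.15 on the log2 scale in either direction.

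E2F4 had 274, 270 and 276 CPM in shMCM7 cells with Dox and 266, 236 and 231 CPM without. The parental cells had 238, 239 and 233 CPM with Dox and 219, 202 and 200 CPM without, so the Dox libraries were the higher ones in both kinds of cells. In shMCM7 cells the log2 fold change was 0.15 (95% interval 0.01 to 0.28, edgeR FDR 0.0806), and in parental cells it was 0.19 (95% interval 0.08 to 0.30, edgeR FDR 0.523). Without the low-MCM7 library shMCM7 noDox 1, the value in shMCM7 cells was 0.21 with an FDR of 0.0139.

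E2F6, a repressor that works without pocket proteins within a Polycomb-type complex (PRC1.6), was at 19.4 to 21.6 CPM with Dox and at 20 to 21.4 CPM without, a log2 fold change that rounded to 0 (95% interval −0.15 to 0.15). E2F7, which forms dimers with E2F8, was at 95.5 to 102 CPM with Dox and 100 to 107 CPM without, a log2 fold change of −0.09 (95% interval −0.21 to 0.03, edgeR FDR 0.186). The groups of both genes overlapped.

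Of the pocket proteins, RB1 had 92.7, 95.8 and 83.4 CPM with Dox and 89.8, 98 and 94.6 CPM without in shMCM7 cells, with a log2 fold change of −0.07 (95% interval −0.22 to 0.07). RBL1 had 35.5, 35.2 and 30.9 CPM with Dox and 38.3, 37.7 and 37.3 CPM without. Its Dox libraries were all below the noDox libraries, and the log2 fold change was −0.18 (95% interval −0.32 to −0.03) with an edgeR FDR of 0.0524. DESeq2 gave an FDR of 0.0465, and without shMCM7 Dox 2 edgeR gave 0.0411. RBL2, the third pocket protein, was not among the chosen members. It had 64.6, 66.2 and 66 CPM with Dox against 69.9, 79.2 and 79 CPM without, a log2 fold change of −0.23 (edgeR FDR 0.0135). In 4 of the 10 members (E2F4, E2F5, E2F8 and RBL1) the 3 Dox libraries did not overlap the 3 noDox libraries, which was so for 55.1% of all genes.

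The Dox effect in shMCM7 cells was then set against the Dox effect in parental cells. In the parental cells themselves, 0 of the 10 members and 0% of all genes were called by edgeR. At an unadjusted p below 0.05 there were 1121 genes, of which 1 was a member (E2F4), and DESeq2 called 3 genes and 0 members. The members' log2 fold changes there had 95% intervals between −0.24 and 0.30. When these Dox effects were tested against each other, 10.5% of all genes and 0 of the 10 members were called. The FDR limit alone was passed by 30.0% of all genes and by the same 2 members, E2F5 with a difference of 0.36 on the log2 scale (SE 0.11, edgeR FDR 0.0266) and E2F8 with a difference of −0.37 (SE 0.12, edgeR FDR 0.0318). E2F5 missed the limit without parental Dox 2 (FDR 0.0656), parental noDox 2 (0.0732) or parental noDox 3 (0.0509). E2F8 missed it without shMCM7 Dox 3, shMCM7 noDox 1 or 3, parental Dox 1 or 3, or parental noDox 2 or 3 (FDR 0.0578 to 0.0745). For E2F4 the difference was −0.05 (95% interval −0.22 to 0.12). The pocket proteins RBL1 and RBL2 missed the limit too. Their differences were −0.12 (95% interval −0.32 to 0.08, edgeR FDR 0.355) and −0.15 (95% interval −0.34 to 0.04, edgeR FDR 0.209).

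A comparison that does not use the noDox libraries set shMCM7 against parental cells, both with Dox. It shares the shMCM7 Dox libraries with the comparisons above. Here 16.0% of all genes and 0 of the 10 members were called, and DESeq2 called 0 members. At an unadjusted p below 0.05 there were 4 members, beside 8831 of all 16086 genes tested. The FDR limit alone was passed by 48.0% of all genes and by 4 members. E2F5 was higher in shMCM7 cells by 0.44 on the log2 scale (SE 0.062, edgeR FDR 4.53e-04) and E2F4 by 0.19 (SE 0.045, edgeR FDR 0.00678). E2F8 was lower, with a log2 fold change of −0.42 (SE 0.09, edgeR FDR 0.00452), and so was RBL1 with −0.22 (SE 0.077, edgeR FDR 0.0434). The value of RBL1 passed the limit no longer without shMCM7 Dox 3 (FDR 0.16), without parental Dox 1 (FDR 0.134) or without parental Dox 2 (FDR 0.0934). The libraries of the 2 groups did not overlap in these 4 members, against 57.7% of all genes. E2F8 was the only member whose interval (−0.62 to −0.21) reached past 1.5-fold.

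**Figure D3:**
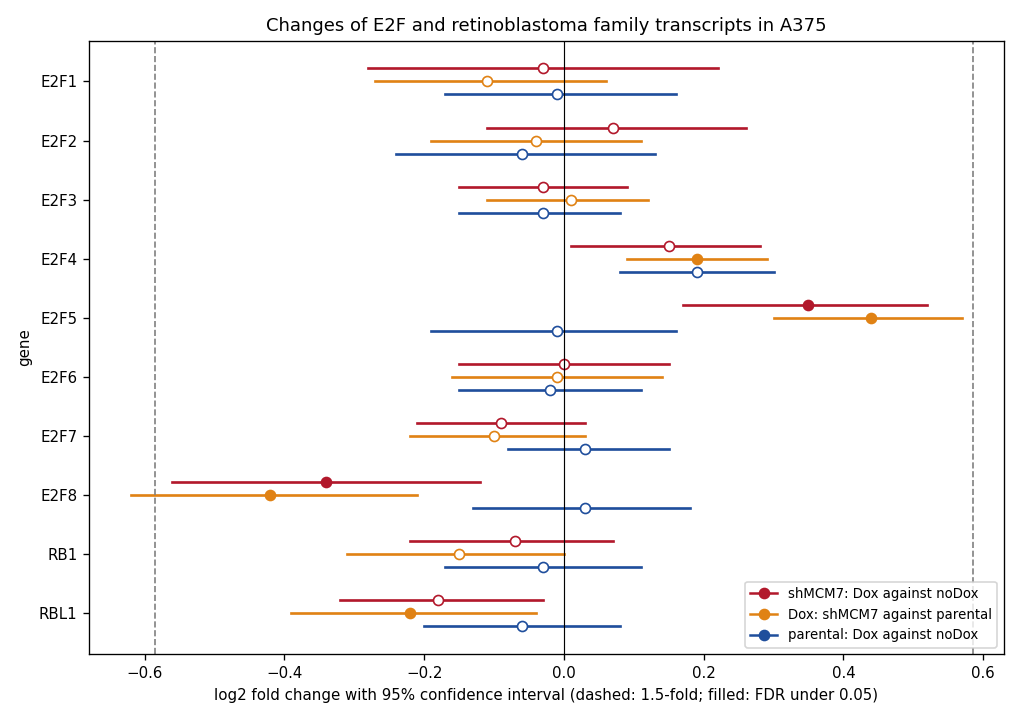
Log2 fold change (x axis) with its 95% confidence interval for each gene in 3 A375 comparisons. The dashed lines mark 1.5-fold and filled points passed an FDR of 0.05. E2F5 lies at 0.35 and 0.44 and E2F8 at −0.34 and −0.42 in the comparisons with MCM7 knock-down, and both lie near 0 in parental cells, while E2F4 lies at 0.15 to 0.19 in all 3.

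Without Dox, shMCM7 cells were compared with parental cells in a fit without a replicate block. There 1.65% of all genes and 0 of the 10 members were called, and DESeq2 called 0 members. At an unadjusted p below 0.05 there was 1 member (E2F4), beside 2612 of all 16093 genes tested. E2F4 was higher in shMCM7 cells by 0.24 on the log2 scale (SE 0.062, edgeR FDR 0.0784). Same-numbered libraries deviated together in this comparison. In the fit blocked on replicate number, the value of E2F4 stayed at 0.24 with an FDR of 2.49e-04. Without the block, E2F5 and E2F8 had log2 fold changes of 0.08 (95% interval −0.13 to 0.28) and −0.05 (95% interval −0.21 to 0.11).

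E2F5 overlaps a gene on the opposite strand, C8orf59, and the sources do not say if reads were counted by strand. C8orf59 stood at 30.1 to 36.6 CPM in A375, above E2F5, with a log2 fold change of 0.09 (edgeR FDR 0.262) in shMCM7 cells. RB1 overlaps LPAR6 (5.74 to 7.41 CPM) and RCBTB2 (4.29 to 5.85 CPM), both far below RB1 itself. The part of shared reads in these values was not tested.

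The rest of the pathway is described by lists of genes for each step, in the comparison of shMCM7 cells with and without Dox, where 5.58% of all genes were called higher and 6.45% lower. Of the DP partners of the E2F factors, neither was called. TFDP1 had 361, 360 and 353 CPM with Dox against 402, 396 and 399 CPM without, a log2 fold change of −0.17 (edgeR FDR 0.0146), and TFDP2 had a log2 fold change of −0.11 (edgeR FDR 0.252).

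Upstream of the pocket proteins, 2 of 13 tested cyclins, kinases and inhibitors were called higher and 1 was called lower. CCND1, the cyclin D1 that starts the phosphorylation of RB1, rose from 445 ± 85 to 1030 ± 130 CPM (log2 fold change 1.19, edgeR FDR 1.55e-04). CDKN1C, the inhibitor p57, rose from 1.86 ± 0.393 to 5.09 ± 2.02 CPM (1.43, edgeR FDR 0.00204). CDKN1A, the inhibitor p21, fell from 1110 ± 48.9 to 724 ± 16.5 CPM (−0.64, edgeR FDR 6.45e-05). The cyclins E, which act at the G1/S boundary and are E2F targets, were not called, with log2 fold changes of 0.13 for CCNE1 (edgeR FDR 0.257) and 0.02 for CCNE2 (edgeR FDR 0.887).

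Downstream, of the 32 G1/S target genes 1 was called lower and 0 were called higher. This was POLA2, a subunit of DNA polymerase alpha, which fell from 95.2 ± 3.46 to 61.6 ± 3.09 CPM (log2 fold change −0.65, edgeR FDR 6.87e-05). The median log2 fold change of the list was −0.21, against 0.004 over all genes, and 24 of the 32 values were negative. By the FDR limit alone 17 of the 32 were lower and 2 were higher, where 22.4% of all genes were lower and 20.6% were higher. In parental cells, Dox against noDox gave 23 negative values of the 32 as well, with a median of −0.02. In the difference of Dox effects 24 were negative, with a median of −0.21. There 2 were called lower, against 6.17% of all genes.

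The G2/M genes, which the MuvB complex controls with RBL1, RBL2 and E2F4 in resting cells and with MYBL2 and FOXM1 in cycling cells, lay lower as a list. Of 24 genes 8 were called lower and 0 higher, all 24 values were negative, and the median log2 fold change was −0.50. By the FDR limit alone 20 of the 24 were lower, against the same 22.4% of all genes. In parental cells, Dox against noDox gave 20 negative values of the 24, with a median of −0.07 and 0 called. In the difference of Dox effects 22 were negative, with a median of −0.43. There 6 were called lower, against 6.17% of all genes. In shMCM7 cells CCNB1 (cyclin B1) fell from 125 ± 13.1 to 67.1 ± 5.3 CPM (−0.92, edgeR FDR 8.51e-05). The mitotic kinase PLK1 fell from 87.2 ± 4.23 to 49 ± 3.29 CPM (−0.85, edgeR FDR 3.9e-05). CENPE, a kinetochore motor, and the kinase AURKA fell with log2 fold changes of −0.85 and −0.75. Of the 7 members of the MuvB core and its partners, 1 was called, the activator FOXM1, which fell from 279 ± 12.8 to 159 ± 7.1 CPM (−0.82, edgeR FDR 3.73e-05). MYBL2 had a log2 fold change of −0.52 (edgeR FDR 2.04e-04), which is below 1.5-fold. In the difference of Dox effects 2 of these 7 were called lower, against 6.17% of all genes. These were FOXM1 (−0.94, edgeR FDR 5.56e-06) and MYBL2 (−0.60, edgeR FDR 1.64e-04). Between shMCM7 and parental cells with Dox 2 of the 7 were called lower as well, against 8.39% of all genes. Of the 12 genes of the E2F6 complex 0 were called and the median was −0.01. The share of cells in each cycle phase is not measured by these libraries, and its part in the values of E2F8, RBL1 and these lists was not tested.

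**Figure D4:**
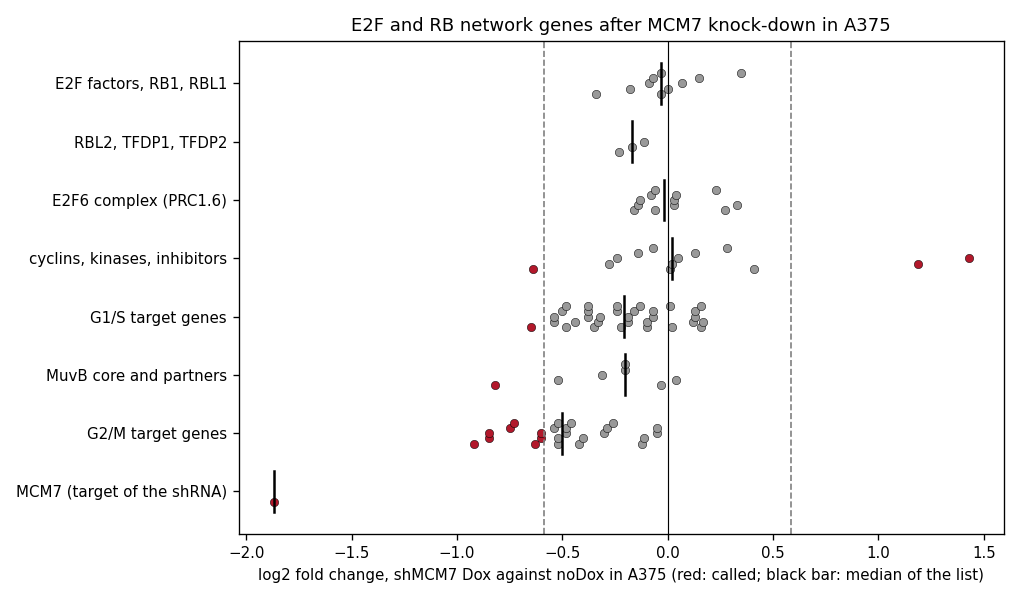
Log2 fold change (x axis) between Dox and noDox in A375 shMCM7 cells for the genes of each list, a point per tested gene, with the list median as a black bar and genes passing the call rule in red. The E2F factors, RB1 and RBL1 lie between −0.34 and 0.35, all 24 G2/M genes lie below 0, and MCM7 lies at −1.87.

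In A549, 0 of the 10 members and 0% of all genes were called between Dox and noDox by label, in shMCM7 cells as in parental cells. At an unadjusted p below 0.05 there were 61 genes in shMCM7 and 1137 in parental cells, none of them a member, and DESeq2 called 0 members in both and 9 genes in parental cells. Each gene is therefore given below by the order of its 12 libraries. The 3 libraries low in MCM7 carry 3 different labels and are no group of the study, so no mean or test is given over them. How many of all genes order in this way was not counted, and nothing is read from the number of members that do.

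E2F8 had its 3 lowest values, 24, 24.6 and 25.1 CPM, in the libraries labelled shMCM7 noDox 2, shMCM7 Dox 3 and parental noDox 2, which are the 3 low in MCM7. The other 9 began at 26 CPM and reached 32.5 CPM. E2F6 had its 3 highest values in the same libraries, 32.8, 31.2 and 35.6 CPM, and the other 9 lay between 25.4 and 29.2 CPM. E2F7 also had its 3 highest values there, 58.7, 52.9 and 58.2 CPM, above 40.7 to 50.5 CPM in the other 9. The DP partner TFDP1 was set apart more widely than any of these, with 123, 120 and 125 CPM in these libraries and 159 to 177 CPM in the other 9. RBL2 was lowest there too, at 52.2, 56.4 and 57.3 CPM against 58.5 to 72.6 CPM.

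The remaining members did not order in this way. E2F5 had 21.3, 22.4 and 23.6 CPM in the 3 libraries, within the range of the other 9 apart from the first, and E2F1 had 75.1, 77.4 and 67.3 CPM, on both sides of most other libraries. RBL1 had its highest value, 59.9 CPM, in parental noDox 2 and 51.6 and 51.3 CPM in the others, within the range of 44.3 to 52.3 CPM of the remaining 9. RB1 was lowest in shMCM7 Dox 3 and shMCM7 noDox 2, with 70.4 and 72.4 CPM, but parental noDox 2 was above 9 of the other libraries at 82.8 CPM. E2F4 was lowest in parental noDox 2 at 72.2 CPM and highest in the 3 parental Dox libraries at 96.9, 97.5 and 99 CPM. E2F2 and E2F3 were mixed as well. In A375, the library shMCM7 noDox 1 with 128 CPM of MCM7 did not share the low E2F8 or the high E2F5 of the shMCM7 Dox libraries, since it had 13.1 and 9.16 CPM. Nor did it share their low RBL1, with 38.3 CPM against 30.9 to 35.5 CPM. Its E2F4, at 266 CPM, lay nearer to the shMCM7 Dox libraries (270 to 276 CPM) than to the other shMCM7 noDox libraries (236 and 231 CPM). The part of the MCM7 level in these values was not tested. E2F6 and E2F7, the highest in the A549 libraries low in MCM7, overlapped between the A375 groups, and this difference between the lines was not tested.

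**Figure D5:**
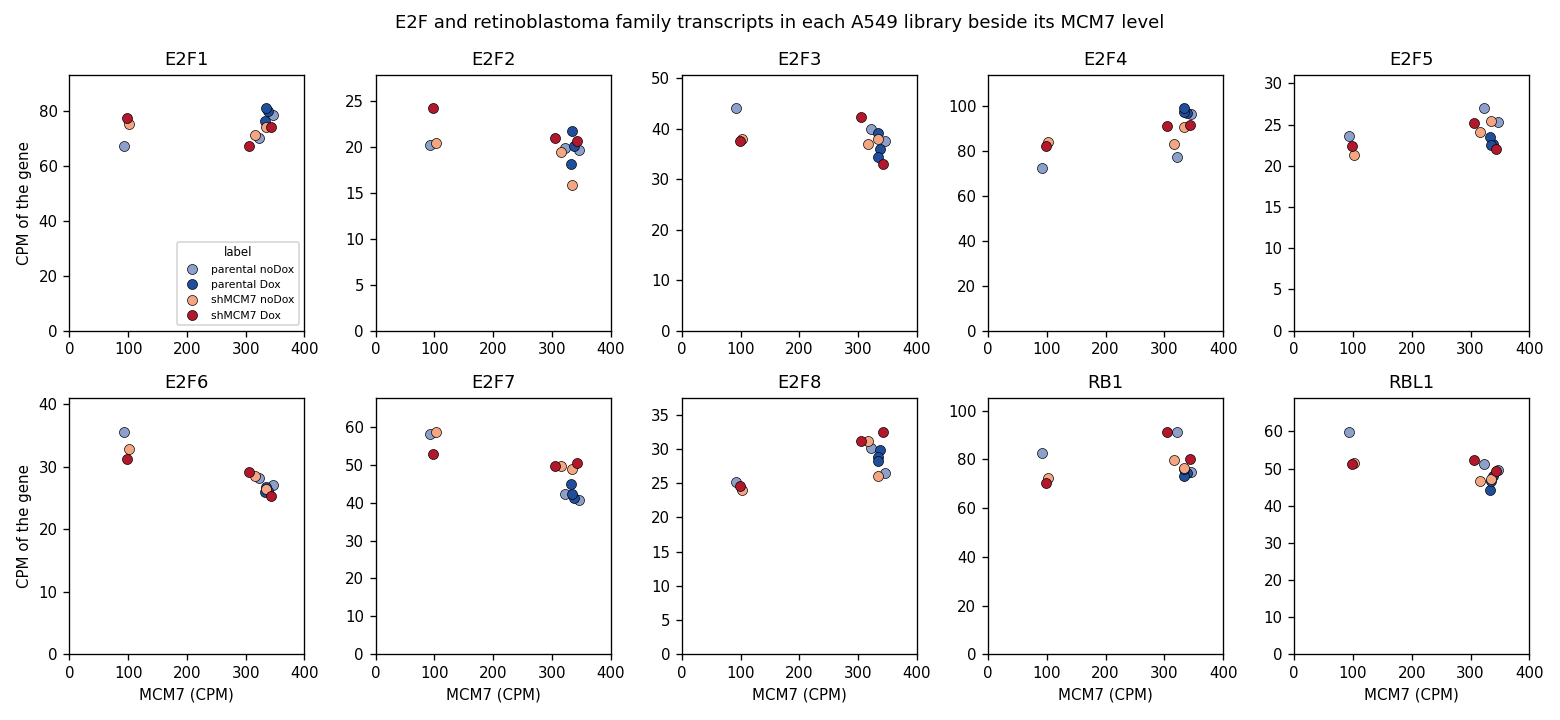
CPM of each gene (y axis, from 0) against the CPM of MCM7 (x axis) in the 12 A549 libraries, coloured by label. The 3 libraries with 92.4 to 102 CPM of MCM7 carry 3 different labels, and among the 10 genes they hold the 3 lowest values of E2F8 (24 to 25.1 CPM) and the 3 highest of E2F6 and E2F7. The share of all genes that set these libraries apart was not counted.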

How the data were processed

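For each of the 24 libraries the authors deposited raw whole-number read counts per gene, not normalized. Their processing notes name bcl2fastq 2.19, Trimmomatic, STAR 2.7.1, featureCounts, edgeR and GRCh38.p10, and the strand setting is not given in the sources used here. Of 21386 Ensembl identifiers, 21349 were named from GENCODE 29. The depth set the floor: 3 counts, which cover counting error only, stood at 0.0104 to 0.0202 CPM in A375 (146656792 to 283721575 counts a library) and at 0.132 to 0.168 CPM in A549 (17911338 to 23452823). No replicates were alike within sampling noise. Where the labels number replicates without stating separate cultures, p-values measure the spread between these libraries.

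Counts were tested in R 4.3.3 with edgeR 4.0.16 (TMM, filterByExpr, glmQLFit and glmQLFTest, prior count 0.125) on the groups compared, over all genes with Benjamini-Hochberg adjustment. The line comparison had Dox as a covariate, and the difference of Dox effects was an interaction over 4 groups. Confidence intervals are at 95%. DESeq2 1.42.0, other scalings, filters and dispersions, glmTreat, the replicate block and leaving out each library were alternatives. The limit on FDR alone was added after the data were seen. The steps were tested on simulated data.

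The members and gene lists were chosen with earlier results of these data known. The genes named were the members, RBL2, TFDP1, TFDP2, MCM7 and up to 4 called genes per direction of each list, besides the cyclins E, MYBL2 and the genes that overlap members, named after their values were seen. The rule for genes of like pattern needed a called member and gave none. Deviations of same-numbered libraries correlated at 0.318, 0.212 and 0.341 between the A375 noDox groups, which were taken as paired from the data. The main fit of that comparison nevertheless had no replicate block, and the fit with the block is given beside it. In the other comparisons not every pair passed 0.1. Groups follow the labels throughout, also in A549, where MCM7 went against them.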

Additional observations from a re-analysis of the deposited data

Results flagged for a closer look

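In A375, the log2 Dox effect on E2F5 in shMCM7 cells exceeded that in parental cells by 0.36 (95% interval 0.12 to 0.60, edgeR FDR 0.0266), since E2F5 was higher with Dox by 0.35 in shMCM7 cells and stood at −0.01 in parental cells. The Dox effect on E2F8 differed by −0.37 (95% interval −0.62 to −0.11, edgeR FDR 0.0318), from −0.34 in shMCM7 cells and 0.03 in parental cells. Both were picked out because the interaction term passed an FDR of 0.05. Both estimates lie below a 1.5-fold change, but both intervals reach past it. The intervals of the other 8 members stayed within 1.5-fold, as did those of 58.3% of all genes. With 3 libraries a group, no library was tested for standing apart.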

How the results depend on the processing

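The call rule gave 0 of 10 members in each comparison within a line and 5 of 10 between the lines under every alternative run. Counts over all genes moved by over 1.5 times in few settings. With glmTreat against 1.5-fold, 499 genes passed between Dox and noDox in A375 shMCM7 cells (1934 by the main rule), 273 in the difference of Dox effects (1720) and 1274 between shMCM7 and parental cells with Dox (2578), and the members past an FDR of 0.05 fell to 0 in all 3, since this test asks for a larger change. In A375 parental cells DESeq2 called 3 genes, the replicate block 12, and leaving out a library 0 to 1 (1 without parental Dox 3), against 0. Without Dox, shMCM7 against parental cells gave 484 genes with the block and 173 to 321 with a library left out (173 without parental noDox 2, 177 without parental noDox 3), against 266. In A549 parental cells DESeq2 called 9 genes, and leaving out a library gave 0 to 300, the 300 without parental noDox 3, where E2F4 stood at 0.41 with an FDR of 0.0442. The cause of these shifts was not tested.

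Over the alternatives other than glmTreat, E2F5 kept an FDR below 0.05 in A375 shMCM7 cells. For E2F8 that limit was missed in 3 of 6 fits with a library left out, with log2 fold changes from −0.41 to −0.25. In the difference of Dox effects it was missed by E2F5 in 3 and by E2F8 in 7 of 12 such fits. In shMCM7 cells the replicate block put RBL1 past the limit at −0.18 (FDR 0.0265). Same-numbered Dox and noDox libraries correlated there at 0.256, 0.088 and 0.235, and were not taken as paired because not every pair passed 0.1. All 3 Dox libraries still correlated best with the noDox library of their own number. A dispersion shared by all 12 libraries put RBL1 (FDR 0.0421) and E2F4 (FDR 0.0424) past it, and library totals or no filter took RBL1 with Dox to FDR 0.0507 and 0.06. Of 1160 recomputed values 69 changed sign, none of them past an FDR of 0.05. Between the lines, library totals moved the median of all genes by 0.10 on the log2 scale and E2F4 from 1.29 to 1.39. In A549 parental cells the members' intervals reached −0.49 to 0.55. Chi-square per degree of freedom between replicates was 32.1 to 64.2 in the noDox group and 1.98 to 3.58 in the Dox group of these cells, so that the noDox libraries differed by more than counting error.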
